A study of Mus musculus with 4 samples.

Results

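The transcripts of 8 genes of the Celsr family and the core planar cell polarity (PCP) pathway, Celsr1, Celsr2, Celsr3, Fzd3, Fzd6, Vangl1, Vangl2 and Prickle1, were compared between WT and Rest-/- mouse embryonic stem cells (ESCs). They were found by gene symbol and make up 8 of the 26301 genes in the count table. The group was chosen by values of the same comparison of genotypes, since Celsr3 was already known to be higher in Rest-/- ESCs, so its values are a description, and calls made on them by tests across all genes are given as counts from which nothing is read. RNA was sequenced in 4 libraries, 2 replicates of WT ESCs (line N6) and 2 of Rest-/- ESCs (line N8), in which the gene for the repressor REST is disrupted. Both lines were grown in medium with serum and the cytokine LIF on irradiated mouse embryonic fibroblasts, and were then passaged on gelatin with the aim of removing these feeder cells. Each genotype is represented by a single line, so a difference between the lines and an effect of the genotype cannot be told apart. The replicates are called biological, and the spread between them is that of cultures of one line.

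Planar cell polarity aligns cells within the plane of a sheet of tissue. The Celsr proteins, homologs of fly Flamingo, are large cadherins with a multi-pass membrane domain that bind each other across cell borders. They hold Frizzled receptors on one side of the border and Vangl proteins, with the cytoplasmic adaptor Prickle, on the other. The same proteins guide axons and migrating neurons in the nervous system, where Celsr3 is expressed mainly in neurons. REST, a zinc finger protein, binds the RE1 DNA element and represses neuronal genes outside the nervous system, and the study compared the genotypes to find how its targets depend on it in ESCs.

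The libraries held between 22293966 and 30953863 counts on genes. Values per library are given as CPM, the usual unit of reads relative to library size, after scaling by edgeR's TMM method. Rest itself was read 7908 and 6233 times in WT against 4244 and 3890 times in Rest-/- ESCs. The means were 244 CPM in WT and 170 CPM in Rest-/- ESCs, a log2 fold change of -0.52 with a standard error of 0.13. Gene sums do not show which exons were read. As a check of ESC identity, 10 pluripotency markers, led by Dppa5a, summed to 5250 and 5160 CPM in WT and to 4590 and 4830 CPM in Rest-/- ESCs. Of these, 5 had a log2 fold change above 0, while Zfp42, Nanog and Klf4 were lower in both Rest-/- libraries than in either WT library, Zfp42 with 704 and 541 CPM in WT against 258 and 226 CPM in Rest-/- ESCs. Of 10 feeder fibroblast markers, led by Col5a1, Lum was at 0 in every library, and the summed level was 137 CPM in Rest-/- replicate 1 and 50.1 to 59.2 CPM in the other 3 libraries. The 10 primitive endoderm markers, led by Col4a1, summed to 131 and 229 CPM in WT and to 295 and 362 CPM in Rest-/- ESCs. The 8 neural progenitor markers summed to 68.4 and 164 CPM in WT and to 135 and 157 CPM in Rest-/- ESCs, most of it Nes, while Olig2 was read 158 and 172 times in WT against 1 and 0 times in Rest-/- ESCs. In RNA from whole cultures, fewer cells of a type and less RNA per cell cannot be told apart.

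Celsr3 (Entrez gene 107934, chr9:108728651-108755294 in mm9, plus strand) stood apart from the other 7 genes. The 2 WT libraries held 1123 and 1338 of its reads, and the Rest-/- libraries 8737 and 7832. This was 36.3 and 49.9 CPM for WT against 338 and 353 CPM for Rest-/-, so the groups lay far apart and the Rest-/- libraries nearly coincided. The means were 43.1 ± 9.67 CPM (SD, n = 2) and 346 ± 10.9 CPM (SD, n = 2), a ratio of 8.02 and a log2 fold change of 3.0 with a standard error (SE) of 0.21 in edgeR's quasi-likelihood fit. The difference on the log2(CPM + 0.5) scale was 3.20 between the first replicates and 2.81 between the second. With each library left out in turn the log2 fold change lay between 2.79 and 3.25. Celsr3 was as high in Rest-/- replicate 2, where the fibroblast markers summed to 59.2 CPM, as in Rest-/- replicate 1, where they summed to 137 CPM. All 10 primitive endoderm markers and 7 of the 8 tested fibroblast markers had a log2 fold change above 0, as Celsr3 did. The part of either cell type in the result was not tested.

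The groups of the other Celsr genes overlapped. Celsr1 (12614, chr15:85729188-85864207, minus strand), known for its part in the polarity of epithelia and the neural tube, was at 31.4 and 46.9 CPM in WT and 32.5 and 54.1 CPM in Rest-/- ESCs. Both genotypes had their higher value in replicate 2. The log2 fold change was 0.14 (SE 0.34), and it was -0.28 without Rest-/- replicate 2 and 0.47 without Rest-/- replicate 1. Celsr2 (53883, chr3:108193769-108218470, minus strand), which acts with Celsr3 in neurons and in ependymal cells, was at 21.8 and 33.4 CPM in WT and 23.0 and 29.4 CPM in Rest-/- ESCs. Both Rest-/- values lay between the WT values. The log2 fold change was -0.08 (SE 0.29), from -0.36 without WT replicate 1 to 0.27 without WT replicate 2.

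**Figure D1:**
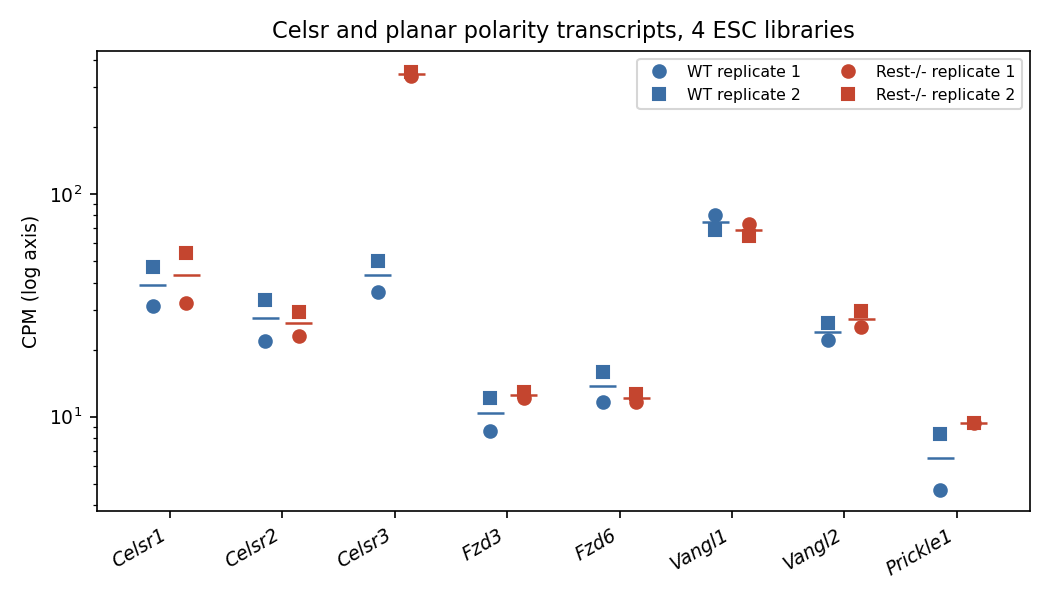
CPM of the 8 genes on a log axis in the 2 WT (blue) and 2 Rest-/- (red) libraries, with circles for replicate 1, squares for replicate 2 and a short line at each mean. Celsr3 is at 36.3 and 49.9 CPM in WT and at 338 and 353 CPM in Rest-/- ESCs, while the genotypes overlap for 6 of the other 7 genes.

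Per kilobase of annotated exon, the balance within the family differed between the lines. The exons cover 11.1 kb in Celsr1, 11.5 kb in Celsr2 and 11.5 kb in Celsr3. Of the summed Celsr level per kilobase, Celsr3 made up 39.9% and 37.7% in WT against 85.6% and 80.5% in Rest-/- ESCs. The share of Celsr1 was 36.0% and 37.0% in WT and 8.6% and 12.8% in Rest-/- ESCs. That of Celsr2 was 24.1% and 25.3% in WT and 5.8% and 6.7% in Rest-/- ESCs. The lower shares of Celsr1 and Celsr2 thus stood beside levels per kilobase that overlapped between the genotypes.

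The 5′ end of Celsr3 was searched for the RE1 motif as the study draws it, 15 bases with 12 informative positions. It consists of a left arm, CAGNACC, and a right arm, GGACAG, with 2 free bases between, and both strands were searched. The study scored sites against a weighted motif and counted partial motifs too, so this search for letters is a different measure. In mm9, 1304 sites matched all 12 positions, and 0 of the 8 genes had one within 20 kb of an annotated start, against 3.73% of the 22736 genes with a position in GENCODE M1. When 1 mismatch was allowed, 3 of the 8 genes had a match within 20 kb, against 39.2% of all genes, and Celsr3 and Vangl1 had one within 1 kb, against 5.29%. These matches are shown because they are the closest to the motif at the 8 genes, with capitals where a base equals a fixed letter of the motif.
Celsr3, chr9:108728251-108728265, plus strand: CAGcACCgtGGgCAG
Vangl1, chr3:102002414-102002428, minus strand: CAGaACCaaGGAaAG
Celsr1, chr15:85846950-85846964, plus strand: CAGgtCCaaGGACAG
Celsr1, chr15:85873767-85873781, minus strand: CAGgACaagGGACAG
The Celsr3 match is centred 393 bases before the start annotated in GENCODE M1, which is the start codon, and 118 bases before the RefSeq start, which lies 275 bases further upstream. The Vangl1 match lies inside the gene, 593 bases from one of its annotated starts. Those of Celsr1 lie inside the gene, 17250 bases from its start, and outside it, 9567 bases from its start. A match describes letters and does not show that REST binds there. Separately, the study lists Celsr3 among genes near REST-bound regions, with less of the repressive histone mark H3K27me3 in Rest-/- ESCs by ChIP-seq. The position of that bound region was not compared with these matches.

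RefSeq's promoter windows (GRCm38.p6, 250 bases before to 50 after a start) matched 4 of the 8 genes by symbol, Celsr2, Celsr3, Prickle1 and Vangl2. Among these the Celsr3 window alone held the motif with at most 1 mismatch, which 0.438% of the 32851 windows in the table did, and 0.0578% held it at all 12 positions. The 250 bases upstream of the Celsr3 start are shown because they place this match beside the promoter of the gene with the difference. They lie at chr9:108728126-108728375 on the plus strand of mm9, by a match of the RefSeq sequence, and capitals mark the letters shared with the motif.
Celsr3 promoter: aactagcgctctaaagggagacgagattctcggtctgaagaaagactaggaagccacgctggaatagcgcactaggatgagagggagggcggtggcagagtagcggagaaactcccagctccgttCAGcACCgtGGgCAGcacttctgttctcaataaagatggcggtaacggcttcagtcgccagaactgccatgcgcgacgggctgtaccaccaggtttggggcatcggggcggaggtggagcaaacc

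Inside exon 1 of Celsr3 both arms of the motif occurred together, in order and on the gene's strand, but further apart than in the motif. A search for all letters of both arms at 0 to 20 bases apart, added after the sequence had been seen, found 3 such pairs in exon 1, each with 11 bases between the arms. A further pair, with 1 base between its arms, lay 19705 bases after the annotated start. Those in exon 1 lie from 724 to 1480 bases after the annotated start, in coding sequence. The pairs are shown because they share their arms and differ between them, the first and second in the stretch chr9:108729355-108729457 and the last at chr9:108730108-108730131, both on the plus strand, with the arms in capitals.
Celsr3 exon 1, pairs at 724 and 763 bases: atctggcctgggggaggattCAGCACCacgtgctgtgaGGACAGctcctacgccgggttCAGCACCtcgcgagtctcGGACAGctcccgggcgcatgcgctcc
Celsr3 exon 1, pair at 1457 bases: CAGCACCagtggccgcgtGGACAG
Pairs at this spacing numbered 1343 in mm9, against 1304 at the motif's own spacing of 2 bases, and the 21 spacings searched had from 269 to 6469. Within 1 kb of a start, 3.64% of all genes had a pair at any spacing from 0 to 20 bases, the rule searched, and 0.198% had one 11 bases apart. Within 2 kb of a start, 69 genes had at least 1, and Celsr3 was the 1 gene of 22736 with 2 or more. The spacing was picked from Celsr3 itself, so this count describes the gene and is not independent of the choice.

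**Figure D2:**
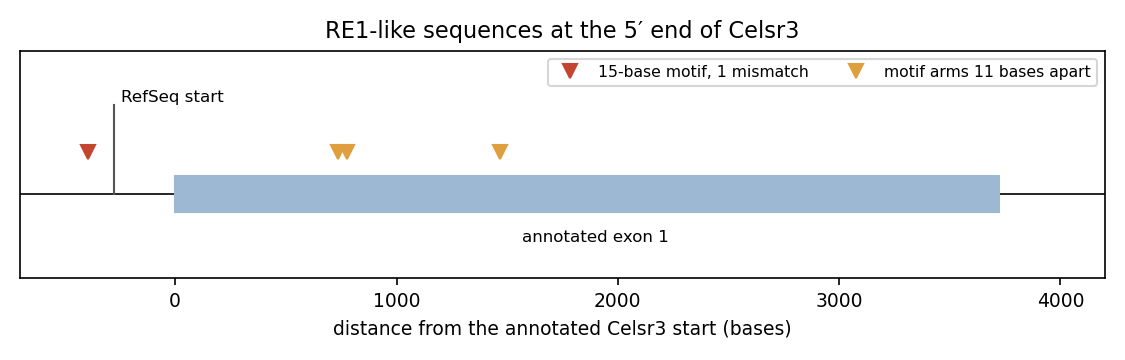
Map of the 5′ end of Celsr3, in bases from the start annotated in GENCODE M1, with exon 1 as a bar, the RefSeq start as a vertical line and triangles for the motif match with 1 mismatch (red) and the pairs of motif arms 11 bases apart (orange). The match lies 118 bases before the RefSeq start, and the 3 pairs lie between 724 and 1480 bases into exon 1.

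The genes next to Celsr3 had smaller differences. Annotated starts of 4 genes lay within 100 kb, and 3 of these genes were tested. Ip6k2, an inositol hexakisphosphate kinase gene at -30.2 kb from the Celsr3 start, was at 17.9 and 16.5 CPM in WT and 23.4 and 18.4 CPM in Rest-/- ESCs, with a log2 fold change of 0.28 (SE 0.22). Both its Rest-/- libraries were above both WT libraries. Nckipsd, at -17.9 kb, had a log2 fold change of 0.06 (SE 0.22), and the anion exchanger gene Slc26a6, at 27.7 kb, one of 0.09 (SE 0.26). Tmem89 had 0 counts in all 4 libraries.

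The profiles most like that of Celsr3 over the 4 libraries were sought among the 13796 tested genes with a mean of at least 1 CPM, by Euclidean distance between centred log2(CPM + 0.5) values. The 5 nearest were Scg5, the chaperone of a prohormone convertase, at a distance of 0.20, Rab3c, a GTPase of secretory vesicles, at 0.211, Syp, a synaptic vesicle membrane protein, at 0.253, the glycosyltransferase Galnt9 at 0.305, and Rps3a1 at 0.307. Syp was at 8.2 and 13.6 CPM in WT and 98.8 and 103 CPM in Rest-/- ESCs, a log2 fold change of 3.21 (SE 0.30). The log2 fold changes of Scg5 and Rab3c were larger than that of Celsr3, at 5.07 (SE 0.65) and 5.82 (SE 0.6). Scg5 had 2 and 7 reads in the WT libraries and Rab3c had 1 and 3, so for these the added 0.5 CPM sets much of the distance. Rps3a1 is a ribosomal protein gene with near-identical copies, between which its reads may be split. A centred profile over 4 libraries of 2 genotypes holds only the difference between the genotypes and the gap between replicates within each.

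Fzd3 and Fzd6 encode the Frizzled receptors best known for planar polarity, in axon guidance and in hair follicle orientation, respectively. Fzd3 (14365, chr14:65819863-65881300, minus strand) was at 8.65 and 12.1 CPM in WT and 12.1 and 12.9 CPM in Rest-/- ESCs. WT replicate 2 was level with Rest-/- replicate 1, and WT replicate 1 lay below them. Its log2 fold change was 0.27 (SE 0.27), from 0.04 to 0.53 with a library left out. Fzd6 (14368, chr15:38837879-38869732, plus strand) was at 11.7 and 15.9 CPM in WT and 11.7 and 12.6 CPM in Rest-/- ESCs. The genotypes overlapped at the low end, and WT replicate 2 was the highest of the 4 libraries. The log2 fold change was -0.19 (SE 0.26), from -0.40 to 0.05 with a library left out.

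Vangl1 and Vangl2 encode the multi-pass membrane proteins that recruit Prickle, and loss of Vangl2 function leaves the mouse neural tube open. Vangl1 (229658, chr3:101960624-102008616, minus strand) was at 80.4 and 68.5 CPM in WT and 73.3 and 64.9 CPM in Rest-/- ESCs. Here replicate 1 was the higher library in both genotypes, and the log2 fold change was -0.11 (SE 0.16). An annotated transcript on the opposite strand, Gm16160, overlaps its 5′ end, and since the library kit does not mark strand, reads from the overlap cannot be told apart. Vangl2 (93840, chr1:173931091-173958575, minus strand) was at 22 and 26.2 CPM in WT and 25.3 and 29.8 CPM in Rest-/- ESCs, with overlapping groups and a log2 fold change of 0.20 (SE 0.20). Its differences were 0.20 between the first and 0.18 between the second replicates.

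Prickle1 (106042, chr15:93329545-93426322, minus strand) encodes a LIM domain adaptor that binds Vangl proteins. Its reads numbered 145 and 225 for WT against 243 and 207 for Rest-/-, or 4.68 and 8.40 CPM against 9.40 and 9.34 CPM. Both Rest-/- values were above both WT values, but WT replicate 2 was close to them. The log2 fold change was 0.52 (SE 0.37), and its size rested on WT replicate 1, since it was 0.15 without that library and 1.00 without WT replicate 2. The difference was 0.93 between the first replicates and 0.15 between the second.

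**Figure D3:**
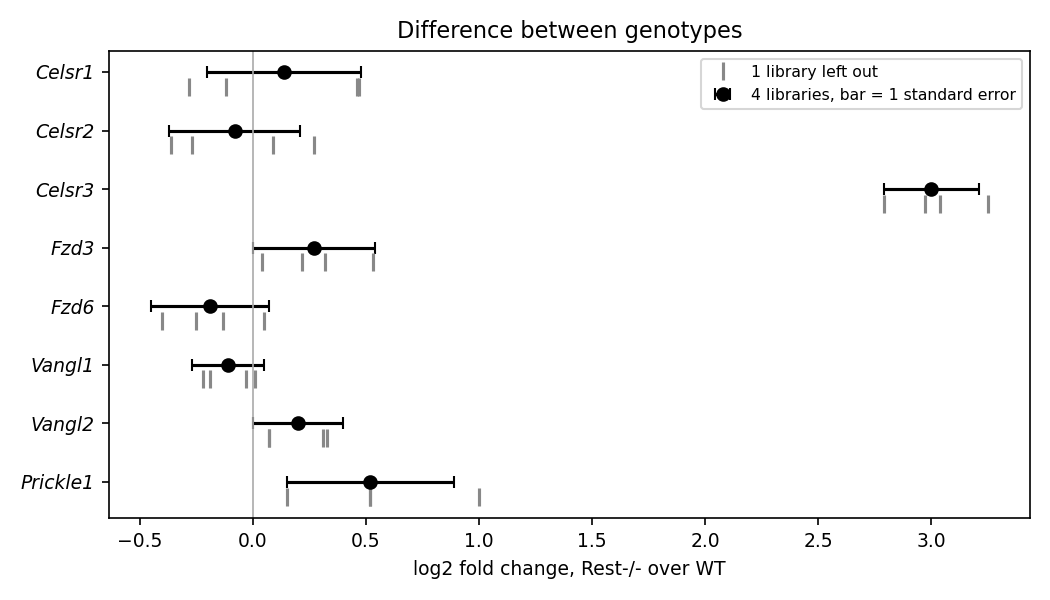
Log2 fold change of each of the 8 genes, Rest-/- over WT, from the fit of 4 libraries (black points, bars of 1 SE) and with each library left out in turn (grey ticks). Celsr3 lies at 3.0 and between 2.79 and 3.25 with a library left out, and the other 7 lie between -0.19 and 0.52.

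Read as a group, the genes split into Celsr3 and the rest. The log2 fold change was above 0 for 5 genes and below 0 for 3, with a median of 0.17, against a median of -0.0047 over all 15444 genes tested, which included all 8. In 2 of the 8, Celsr3 and Prickle1, both Rest-/- libraries were above both WT libraries, which held for 16.5% of all tested genes. In 0 of the 8 were both below, which held for 15.4%. By edgeR's quasi-likelihood test, at 0.05 after adjustment over all genes, 0 of the 8 were called, as 0.0583% of all tested genes were, and 1 of the 8, Celsr3, was among the 1036 genes with an unadjusted p under 0.05. Celsr3 was called higher by edgeR's exact test with tag-wise dispersion, as 1.33% of all genes were, and by DESeq2, as 1.17% were, and no other of the 8 was called by either. Since the group was chosen on this comparison, nothing is read from these calls.

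Levels were compared between genes per kilobase of exon. In WT ESCs Vangl1 led with 18.4 ± 2.07 CPM per kb (SD, n = 2), and the other 7 lay between 1.5 and 3.73 CPM per kb. Celsr3 (3.73 CPM per kb), Celsr1 (3.54), Vangl2 (3.44) and Fzd6 (3.39) followed, and neighbours in this order overlapped in their 2 libraries. Fzd3 (2.46 CPM per kb), Celsr2 (2.4) and Prickle1 (1.5) came last and overlapped likewise, and the lower Fzd6 library and the higher Fzd3 library were level at 2.87 CPM per kb. In Rest-/- ESCs Celsr3 led, with 29.3 and 30.6 CPM per kb, clear of Vangl1 with 17.1 ± 1.47 CPM per kb (SD, n = 2). Vangl2 (3.94 CPM per kb), Celsr1 (3.91), Fzd6 (2.98) and Fzd3 (2.96) came next, then Celsr2 (2.28) and Prickle1 (2.16). Besides Celsr3, Vangl1 and Fzd3 were separate from the next gene in that order, and the other neighbours overlapped. Celsr3 was thus second of the 8 in WT and first in Rest-/- ESCs, also with the longest annotated transcript as the length.

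**Figure D4:**
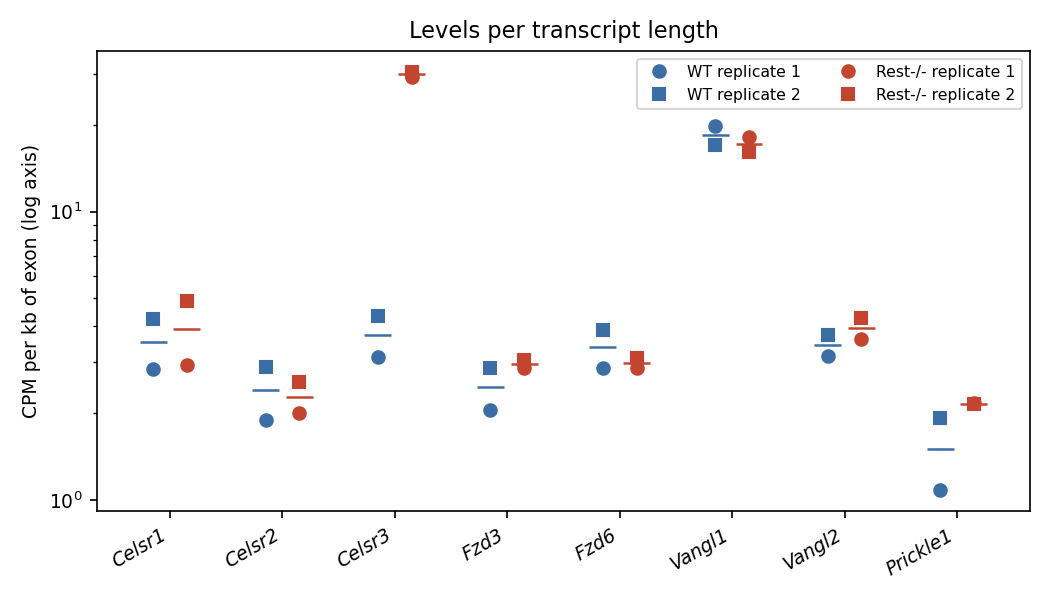
CPM per kilobase of annotated exon on a log axis for the 8 genes in the 4 libraries, with circles for replicate 1, squares for replicate 2, blue for WT, red for Rest-/- and a short line at each mean. Vangl1 is highest in WT at 18.4 CPM per kb, and Celsr3 is highest in Rest-/- ESCs, at 29.3 and 30.6 CPM per kb.

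The rest of the pathway, together with a list of other receptors of the class of the Celsr proteins, was described from 6 lists of 71 genes. Of these, 70 were in the table and 63 were tested. In edgeR's quasi-likelihood test 0 of the 63 passed after adjustment over all genes, and 7 had an unadjusted p under 0.05, as 6.71% of all tested genes had. By edgeR's exact test with tag-wise dispersion 1 was called, Adgre5, which was lower, as 0.46% of all genes were. By DESeq2 2 were called, Adgre5 and Adgrg1, both lower, as 0.376% of all genes were. Both come from the receptor list. The median log2 fold change over the 63 genes was 0.09, with 35 above and 28 below 0. Both Rest-/- libraries were above both WT libraries for 15 of the 63, against 16.5% of all tested genes, and below for 13, against 15.4%.

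Among 11 tested ligands and co-receptors the median log2 fold change was 0.26. The highest values were those of the ligand genes Wnt7a, 1.40 (SE 0.86), and Wnt5b, 0.83 (SE 0.39). Wnt5a, the ligand best known for planar polarity, was read 58 and 20 times in WT and 87 and 17 times in Rest-/- libraries. The lowest values were those of Gpc3, a glypican, -1.05 (SE 0.35), with 55.6 CPM in WT and 26.9 CPM in Rest-/- ESCs, and of the ligand gene Wnt11, -0.48 (SE 0.38). Of the 8 other Frizzled genes 7 were above 0, with a median of 0.22, from -0.39 for Fzd8 to 0.42 for Fzd4 and 0.51 for Fzd10. Fzd7 averaged 119 CPM in WT with an SD of 22.5 and 141 CPM in Rest-/- ESCs with an SD of 20.7 (n = 2 each), and Fzd5 had a log2 fold change of 0.03 (SE 0.13).

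The 14 cytoplasmic proteins had a median of 0.01 on the log2 scale and split evenly in sign. Prickle3, a paralog of Prickle1, was lowest at -0.76 (SE 0.26), with 200 and 175 reads in WT and 98 and 86 in Rest-/- libraries, so its groups did not overlap. Prickle2 followed at -0.43 (SE 0.38), so these paralogs lay below 0 and Prickle1 above. Dact1, which binds Dishevelled, was highest at 0.62 (SE 0.31), followed by Prickle4 at 0.34 (SE 0.50), which had at most 16 reads in a library. The 3 Dishevelled genes, which relay the signal from Frizzled, had log2 fold changes of 0.31 (Dvl1), -0.22 (Dvl2) and 0.02 (Dvl3).

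The 10 effectors had a median of 0.10 on the log2 scale. The formin gene Daam2 was highest at 0.83 (SE 0.57), with at most 21 reads in a library, followed by the ciliary effector gene Fuz at 0.30 (SE 0.30), and Daam1, a paralog of Daam2, was among the lowest at -0.13 (SE 0.16). Of the 5 tested Fat and Dachsous genes, cadherins and their regulator that form a parallel polarity system, Fat2 was read 117 and 167 times in WT and 49 and 39 times in Rest-/- libraries. Its log2 fold change was -1.45 (SE 0.38), with an adjusted p of 0.573 in edgeR's quasi-likelihood test. Dchs1 was at 0.92 (SE 0.61), Fjx1 at 0.29 and Fat3 at -0.34 on the same scale. Fat1 was at 830 CPM in WT and 808 CPM in Rest-/- ESCs, with the higher value in replicate 2 of both genotypes.

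The other adhesion G protein-coupled receptors are the receptor class to which the Celsr proteins belong. Of 20 genes 15 were tested, with a median of -0.17 on the log2 scale and a highest value of 0.86, that of the latrophilin gene Adgrl3 (SE 0.42), followed by Adgrb3 with 0.27. Adgre5, also called Cd97, was at 113 CPM in WT and 49.9 CPM in Rest-/- ESCs, which is -1.18 on the log2 scale (SE 0.29), with an adjusted p of 0.520 in edgeR's quasi-likelihood test. Adgrf5 was at -1.18 as well (SE 0.38), with 79 and 73 reads in WT and 24 and 31 in Rest-/- libraries. Of the 63 tested genes of the lists the highest log2 fold change was 1.40, below the 3.0 of Celsr3, which was known to be high beforehand. Among all 15444 tested genes, Celsr3 ranked 76 by log2 fold change.

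**Figure D5:**
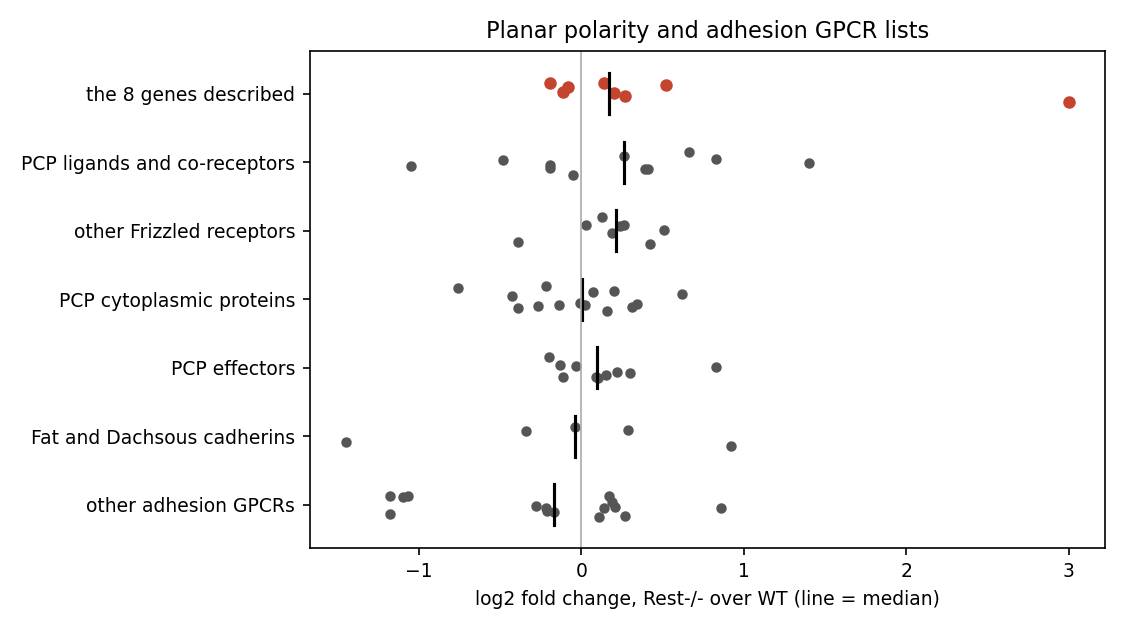
Log2 fold change, Rest-/- over WT, of the 8 genes described (red) and of the tested genes of the 6 lists (grey), 1 point a gene, spread vertically at random within a row, with a line at each median. Celsr3 is the point at 3.0, and the listed genes lie between -1.45 and 1.40.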

How the data were processed

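TruSeq libraries were made from total RNA, and the submitters' processing notes name mm9, Subread and featureCounts. The authors deposited raw counts per Entrez gene, which are whole numbers and carry no normalization. The annotation, tool versions and strand setting are not given in the sources used here. The table had 26301 rows with an identifier and 368 empty rows, which were left out. RefSeq names (GRCm38.p6) matched 24191 identifiers. Positions, starts and exon lengths came from GENCODE M1 (mm9) for 22736 genes, which hold 96% of the counts.

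Counts were analysed in R 4.3.3 with edgeR 4.0.16 (TMM, filterByExpr, quasi-likelihood test, prior count 0.125, Benjamini-Hochberg adjusted p under 0.05, 15444 genes tested). The SE is the log2 fold change, fitted without a prior count, divided by the root of the F statistic. The test and the motif search were tested on simulated data. Genotypes were read from the labels. The genes and lists were chosen with earlier results of these data known. In each list the 2 highest and the 2 lowest log2 fold changes were named, where on that side of 0, with all genes called, the 5 profiles nearest to Celsr3, the tested genes with a start within 100 kb of it, and the markers at 0 or with the largest level. One gene that this rule names among the effectors is not reported here. Adgrg1, Olig2, Zfp42, Nanog, Klf4, Wnt5a, Fzd5, Fzd7, Dvl1, Dvl2, Dvl3, Fat1, Gm16160 and Tmem89 were added after their values were seen. The alternatives were other scalings and filters, edgeR's exact test, DESeq2 1.42.0, a block for the replicate number, a prior count of 2, leaving out each library, and other motif rules and lengths. With 2 libraries a genotype, the p-values set the difference between the genotypes only against the spread between replicate cultures of one line.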

Additional observations from a re-analysis of the deposited data

How the results depend on the processing

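EdgeR's quasi-likelihood test called 9 genes, and this count depended on the test and the filter. It was 53 with no filter beyond 1 count and 3 with at least 10 counts in every library. The exact test of edgeR called 277 genes with tag-wise and 344 with common dispersion, and DESeq2 called 238. With each library left out in turn it lay between 60 and 113, where the lone library left of a genotype is assumed to vary like the other pair. RLE, upper quartile and library-size scaling gave 10, 10 and 9. Of the 8 genes described, 1, Celsr3, was called with no filter, with both exact tests, with DESeq2 and without each library in turn (1 in every such fit, range 1 to 1), and none under the other scalings or the stricter filter. Of the 63 listed genes 0 were called by the main quasi-likelihood test, 1 with tag-wise dispersion (Adgre5), 1 with common dispersion (Fat2) and 2 with DESeq2.

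With the replicate number as a block, 2621 genes were called, 17% of those tested, 1308 higher and 1313 lower. Among them were 1 of the 8 (Celsr3) and 19 of the 63 listed genes, 7 higher and 12 lower. Same-numbered libraries deviated together (r = 0.81 across 15444 genes), but there are only 2 numbers and no shared batch is stated. The log2 fold change of Celsr3 stayed between 2.79 and 3.25 under all 14 alternatives. Those of Celsr1, Celsr2, Fzd6 and Vangl1 changed sign when 1 or another library was left out. The number of the 8 genes with a motif match within 20 kb, 0, was 3 with 1 mismatch allowed, against 39.2% of all genes, and 1 with both arms 0 to 20 bases apart, against 30.4% of all genes, a rule added after the sequence had been seen, since each allows more sequences. The causes of the other shifts were not tested.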

Other observations

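Replicate 2 had the higher CPM in both genotypes for 6 of the 8 genes described (Celsr1, Celsr2, Celsr3, Fzd3, Fzd6 and Vangl2), as it had for 40.7% of all tested genes. Vangl1 was higher in replicate 1 of both genotypes. In Celsr1 the log2 gap between replicates was 0.57 in WT and 0.73 in Rest-/- ESCs, larger than the log2 fold change of 0.14 between the genotypes. The gap was smallest for Prickle1 in Rest-/- ESCs, at 0.01.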
